A study of Homo sapiens with 9 samples.

Results

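Toll-like receptors sense microbial products at the cell surface or in endosomes, and most of them signal through the adaptor MyD88 and the IRAK kinases. The RNA of 10 genes of this pathway was examined in HT-29 cells, a human colorectal cancer cell line with epithelial features, and the 10 were taken by symbol from a deposited table of 62,710 distinct gene identifiers. They were the receptors TLR3, TLR4 and TLR5, the adaptors MYD88 and TIRAP, the kinases IRAK1, IRAK2 and IRAK4, and the inhibitors TOLLIP and SIGIRR. Each gene had 1 row. The set was taken by name, with earlier results of these data known. The 9 libraries were made from HT-29 cells that were left non-stimulated (3 libraries), stimulated with 500 ng/mL flagellin (3 libraries) or stimulated with 500 ng/mL ADP-heptose (3 libraries), each for 2.5 h. All 9 libraries came from this single line. The study describes the RNA sequencing as coming from independent experiments, and the labels do not say which library belongs to which experiment, so the p-values measure the spread between these libraries of 1 line.

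Both stimuli are bacterial. Flagellin, the protein of the bacterial flagellum, is the ligand of TLR5, which recruits MyD88. MyD88 assembles IRAK4 with IRAK1 or IRAK2 into a complex that passes the signal to TRAF6 and on to NF-κB. ADP-heptose, a sugar intermediate of lipopolysaccharide synthesis, is sensed in the cytosol by the kinase ALPK1, which also leads to NF-κB and uses neither a Toll-like receptor nor MyD88. The design therefore allows the RNA of the Toll-like receptor pathway to be compared after a stimulus that uses it and after one that reaches the same transcription factor by another route.

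The files hold raw counts, from 30,770,448 to 38,304,035 per library in the non-stimulated and flagellin groups and from 50,054,773 to 58,272,772 in the ADP-heptose group. Epithelial markers summed to normalized counts of 327,900 to 507,600 in every library. Of the markers of leukocytes, fibroblasts and endothelium, CD3E, MS4A1, COL1A2, DCN, LUM, PDGFRA and CDH5 had 0 counts throughout and PTPRC at most 2. Of the other leukocyte markers, CD14 had at most 10 counts, CSF1R 8, AIF1 4 and CD68 3, and ITGAM had 0 to 59. COL1A1, with 437 to 1019 counts, made up the fibroblast sum. ADP-heptose replicate 3 stood apart from the others of its group. The SD of its log2 differences over 11,023 genes was 0.364 and 0.372 against replicates 1 and 2, where the other 7 pairs of libraries within a group gave 0.11 to 0.165. Across these genes, its deviations from the group mean correlated with transcript length at r = -0.60 and with GC content at r = 0.43, where replicates 1 and 2 gave 0.55 and 0.55 for length and -0.32 and -0.47 for GC content. The deviations of a group sum to 0, so these signs are not independent of each other. When the fit was adjusted for length and GC content, the log2 fold changes after ADP-heptose against non-stimulated cells were 1.72 for IRAK2 and -0.551 for TIRAP, and both remained called. Results that rest on this library are given with and without it.

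IRAK2 was the member that moved most. After ADP-heptose its RNA rose 3.4-fold and its share among the IRAK transcripts went from about 13% to 31%. TIRAP fell to 0.73 of its non-stimulated level, while TLR3, TLR4, MYD88, IRAK1, IRAK4, TOLLIP and SIGIRR did not pass the test and TLR5 was too low to be tested. After flagellin no member passed it in the fit of all 9 libraries, where 0.379% of all genes tested did. The 5 NF-κB target genes used as a check rose in the same libraries.

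Of the 10 members, 9 could be tested. Here a call means an adjusted p (Benjamini-Hochberg, over all genes tested) under 0.05 in a single edgeR fit of the 9 libraries. In the comparison of ADP-heptose with non-stimulated cells 1 rose (IRAK2) and 1 fell (TIRAP), where 11.9% of all 17,412 genes tested were called. IRAK2 alone also passed a 2-fold threshold, met by 3.37% of genes. The groups did not overlap for 5 of the 9 (TLR4, IRAK2, IRAK4, TIRAP and SIGIRR), against 30.1% of all genes. The median log2 fold change of the 9 was -0.04, beside 0.01 over all genes tested.

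After flagellin 0 of the 9 were called by edgeR, against 0.379% of all genes, and 0.224% of genes also passed the 2-fold threshold. DESeq2 called 0 as well, and 1 member, IRAK2, had an unadjusted p under 0.05, as had 3.79% of all genes. The groups did not overlap for 2 of the 9 (IRAK2 and SIGIRR), against 12.9% of all genes. The median was 0.08, beside 0.00 over all genes.

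Between ADP-heptose and flagellin, which share no library, IRAK2 was again higher and TIRAP lower with ADP-heptose, where 8.16% of all genes were called. IRAK2 passed the 2-fold threshold, as did 2.35% of genes. TLR4, IRAK2, IRAK4 and TIRAP did not overlap between the groups, and 27% of all genes did not. Each group enters 2 of the 3 comparisons, so the values stand side by side and are not independent.

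The promoters of IRAK2 and TICAM1 are shown before the values of single genes. IRAK2 is the member with the largest change, and TICAM1, the adaptor TRIF of TLR3 and TLR4, is the pathway gene whose pattern over the libraries came closest to it. Both stretches are from RefSeq on GRCh38.p14, end before the start sites of both RefSeq and GENCODE, and read 5′ to 3′ on the strand of the gene. That of IRAK2 lies at chr3:10164669-10164864 on the plus strand. That of TICAM1 lies at chr19:4831713-4831962 on the minus strand. Capitals mark the GC box (GGGCGG on either strand) in IRAK2 and the match to the NF-κB consensus in TICAM1:
IRAK2: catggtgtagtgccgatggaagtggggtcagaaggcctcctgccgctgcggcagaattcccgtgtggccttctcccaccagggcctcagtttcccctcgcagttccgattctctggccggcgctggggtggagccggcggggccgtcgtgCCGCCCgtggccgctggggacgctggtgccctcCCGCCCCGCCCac
TICAM1: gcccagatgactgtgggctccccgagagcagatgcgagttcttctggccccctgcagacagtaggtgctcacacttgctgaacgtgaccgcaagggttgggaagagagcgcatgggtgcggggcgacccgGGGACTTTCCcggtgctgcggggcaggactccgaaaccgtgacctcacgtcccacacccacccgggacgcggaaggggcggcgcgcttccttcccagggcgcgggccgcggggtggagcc
The IRAK2 stretch of 196 bases holds 3 GC boxes, the last pair of which shares a base, and is 71.4% G and C. TICAM1 has the NF-κB match GGGACTTTCC at positions -120 to -111 from its RefSeq start. Its stretch also holds 1 GC box, at -45 to -40, which is left in lower case. Windows were present for 4 of the 5 genes nearest to IRAK2, which are named below. The NF-κB consensus was in 1 of these 4, that of TICAM1.

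Windows of 250 bases before to 50 after the start were present for 9 of the 10 members, all but TIRAP, with a second window for TOLLIP. The NF-κB consensus was searched on both strands as GGGRNWYYCC, where R is A or G, N any base, W A or T and Y C or T. It was in none of these 10 windows, and 5.91% of all 35,116 windows of the same length hold it. The motif TGANTCA, the form bound by AP-1 factors, was in 1 member window, that of IRAK1, against 7.71% of all windows. The GC box, a motif added after the other 2, was in 9 of the 10 member windows and in 45% of all windows. For comparison, the NF-κB consensus was in the windows of 3 of the 5 NF-κB target genes used below as a check of the response (NFKBIA, CCL20 and BIRC3). The windows of the other targets, CXCL8 and ICAM1, hold TGGAATTTCC and TGGAAATTCC, which have T in place of the first G. A window without a match can thus hold a close variant, and variants were not searched for in the member windows. These matches describe the letters of short windows only.

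The members differed widely in level. Without stimulation, IRAK1 was the most abundant at 79.4 ± 2.34 RPKM (mean ± SD, n = 3), which is the CPM (the count scaled to the effective library size) divided by the exon length in kilobases, followed by SIGIRR at 36.6 ± 0.242 and TOLLIP at 15.0 ± 0.328. MYD88 stood at 13.0 ± 0.302, IRAK2 at 12.0 ± 0.498, TIRAP at 5.49 ± 0.562 and IRAK4 at 1.91 ± 0.0149 RPKM. The libraries of each of these 7 genes lay apart from those of the next. The receptors formed the bottom of the order, with TLR4 at 0.313 ± 0.0521 and TLR3 at 0.281 ± 0.0906 RPKM, whose libraries overlapped, and TLR5 at 0.018 ± 0.0156. In bulk RNA a change in the number of expressing cells cannot be told apart from a change in RNA per cell.

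By the mean of each group, IRAK1 and SIGIRR remained at the top and TLR5 at the bottom after either stimulus, and TLR3 and TLR4 overlapped. With ADP-heptose, IRAK2 ranked 3 by mean at 40.8 ± 3.63 RPKM, its libraries overlapping those of SIGIRR and lying clear of TOLLIP and MYD88 below. The place of SIGIRR above IRAK2 came from replicate 3 (59.7 against 36.7 RPKM). In replicates 1 and 2 IRAK2 was the higher, at 43.4 and 42.4 against 37.7 and 37.3 RPKM. With flagellin IRAK2 ranked 4 at 15.1 ± 0.229 RPKM and overlapped with TOLLIP and MYD88.

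**Figure D1:**
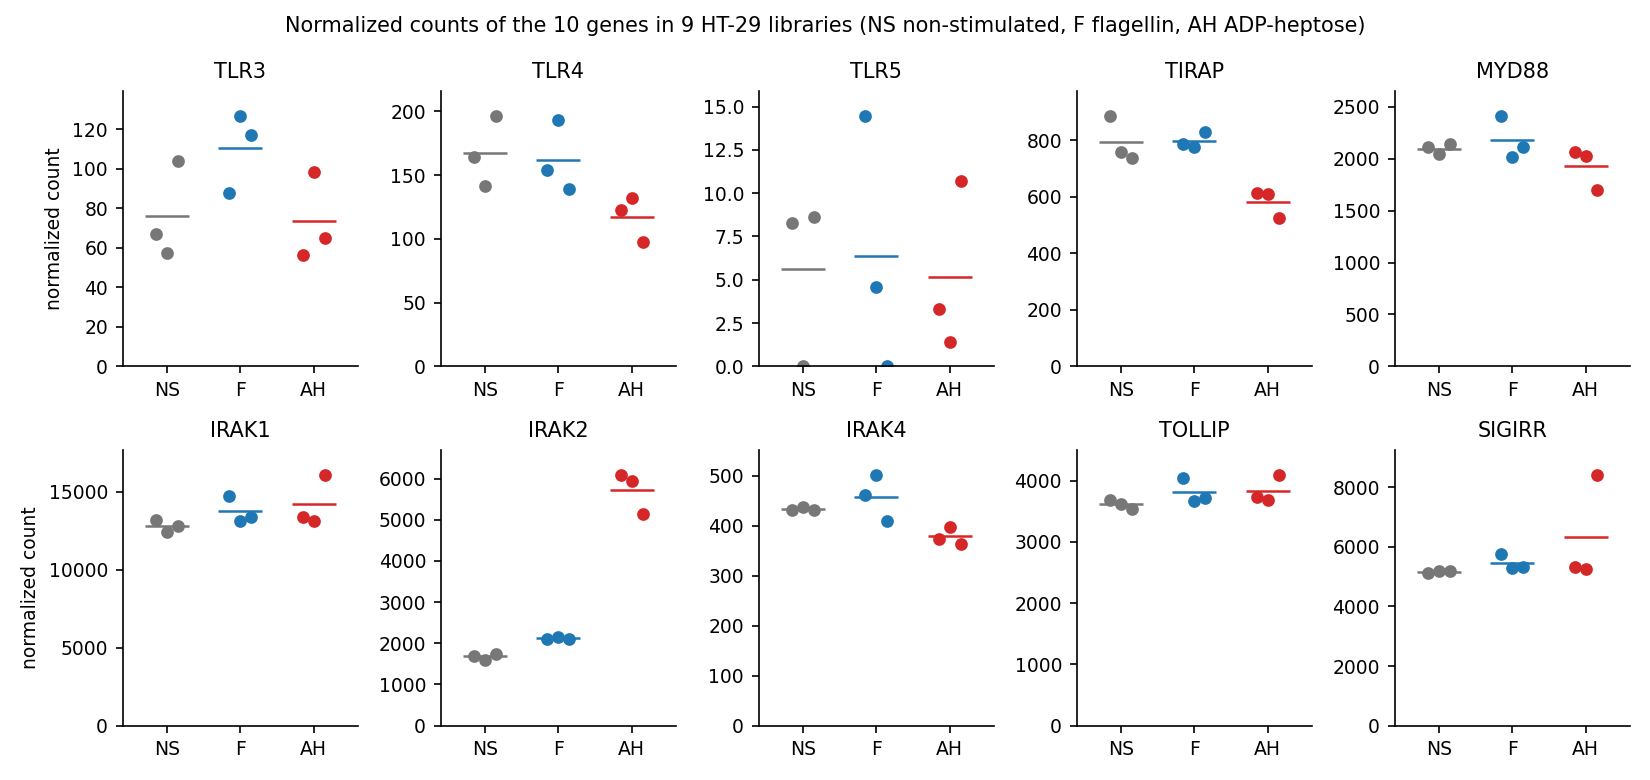
Normalized counts (linear axes from 0) of the 10 genes in each of the 9 libraries, with 1 point per library and a line at the mean of the 3. IRAK2 lies between 5146 and 6090 in the ADP-heptose libraries and at 2157 or lower in all others, and ADP-heptose replicate 3, the rightmost point of each panel, is the high SIGIRR point at 8410.

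TLR5, the receptor of flagellin (chr1:223109406-223143282, minus strand), was barely detected. Its raw counts were 8, 0 and 8 in the non-stimulated libraries, 14, 4 and 0 after flagellin, and 4, 2 and 12 after ADP-heptose. The libraries of the 3 conditions overlapped, and the gene did not pass the filter on low counts, so it was not tested. The summed counts of 16, 18 and 18 correspond to 0.143, 0.17 and 0.12 CPM, with exact Poisson 95% intervals of 0.0815 to 0.231, 0.101 to 0.269 and 0.0711 to 0.19 that cover counting error only. A difference between conditions was not detectable at this depth.

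TLR3, an endosomal receptor of double-stranded RNA, had raw counts of 65, 51 and 96 without stimulation, 85, 111 and 92 after flagellin and 68, 138 and 73 after ADP-heptose. Its groups overlapped in all 3 comparisons. The log2 fold change after flagellin was 0.54 (95% interval -0.06 to 1.14, edgeR adjusted p = 1), an interval that reaches from 0.96-fold to 2.20-fold. After ADP-heptose it was -0.04 (-0.65 to 0.56, adjusted p = 0.936), and its sign changed without replicate 3 (0.04).

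TLR4, the receptor of lipopolysaccharide (chr9:117704175-117724730, plus strand), was at 164, 141 and 197 normalized counts without stimulation and 154, 193 and 139 after flagellin. After ADP-heptose it was at 122, 132 and 97.9, so that all 3 libraries lay below those of both other groups. The log2 fold change against non-stimulated cells was -0.51 (-0.91 to -0.11), with an unadjusted p of 0.0174 and an adjusted p of 0.103. It passed the threshold with library totals in place of TMM factors (-0.64, adjusted p = 0.0451), a scaling that moved the median of all tested genes to -0.13. Without ADP-heptose replicate 3 it was -0.39 (adjusted p = 0.157). The gene AL160272.2, which shares 558 exon bases with TLR4, had 0 counts.

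Of the 7 other Toll-like receptors, TLR2, TLR7, TLR8, TLR9 and TLR10 had 0 counts in all 9 libraries. A count of 0 allows up to 3 counts, which is 0.0532 to 0.095 CPM in these libraries. TLR1 had 11 to 28 counts and TLR6, a partner of TLR2, 537 to 794. edgeR called 0 of these 2 in any comparison, where it called 0.379% to 11.9% of all genes. TLR6 had a log2 fold change of -0.37 after ADP-heptose (-0.62 to -0.12, adjusted p = 0.0572) with no overlap with the non-stimulated libraries. DESeq2 called TLR6 in both comparisons with ADP-heptose, and its unadjusted p in edgeR was under 0.05 in both.

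The helpers of the receptors were unevenly present. CD180 and LY86, which form a receptor complex of immune cells, had 0 counts, and CD14, CD36, LBP and LY96, the MD-2 subunit through which TLR4 binds lipopolysaccharide, stayed at 12 counts or fewer. The chaperones HSP90B1 and CNPY3 and the transport protein UNC93B1 were abundant at 90.4 to 122, 47.8 to 77.3 and 17.8 to 24.7 RPKM. In each comparison 0 of these 3 were called by edgeR, 0 by DESeq2 and 0 had an unadjusted p under 0.05, and their log2 fold changes lay between -0.06 and 0.25. In these comparisons edgeR called 0.379% to 11.9% of all genes.

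IRAK2 (chr3:10164865-10243743, plus strand), a MyD88-complex member with a kinase-like domain that engages TRAF6, had 1701, 1606 and 1742 normalized counts without stimulation. After flagellin it had 2103, 2157 and 2099, and after ADP-heptose 6090, 5948 and 5146. The 3 groups did not overlap, with the flagellin libraries above the non-stimulated ones and the ADP-heptose libraries far above both. Against non-stimulated cells ADP-heptose raised it, with a log2 fold change of 1.77 (0.08 standard error, 95% interval 1.60 to 1.94, edgeR adjusted p = 1.3e-08), which is 3.40-fold. Against flagellin the value was 1.43 (1.26 to 1.60, adjusted p = 1.3e-07) or 2.70-fold. Without replicate 3 these were 1.84 and 1.52, and all 17 alternatives kept both calls, with values of 1.64 to 1.84 and 1.32 to 1.52.

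After flagellin, IRAK2 had a log2 fold change of 0.33 (standard error 0.08, 95% interval 0.16 to 0.50) over non-stimulated cells, which is 1.26-fold. Its unadjusted p was 0.00113 and its adjusted p 0.206, so it did not pass the threshold in the fit of all 9 libraries. The call changed with the libraries in the fit. With the 6 flagellin and non-stimulated libraries alone the value was 0.33 with an adjusted p of 6.7e-04, and without ADP-heptose replicate 3 it was 0.33 with 1.1e-04. DESeq2 gave an adjusted p of 0.0541. The size of the difference hardly moved among all 17 alternatives, from 0.30 to 0.36.

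IRAK1 (chrX:154010500-154019980, minus strand), the most abundant kinase of the set, was at 13,168, 12,415 and 12,802 normalized counts without stimulation, 14,764, 13,134 and 13,388 after flagellin and 13,357, 13,141 and 16,091 after ADP-heptose. The groups overlapped in all 3 comparisons. Its log2 fold change after ADP-heptose was 0.15 (-0.04 to 0.34, adjusted p = 0.307), and 0.05 without replicate 3, the highest of all 9 libraries. The upper bound of this interval is 1.26-fold. The microRNA gene MIR718 lies within IRAK1 and had at most 2 counts.

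IRAK4 (chr12:43758944-43789543, plus strand), the kinase that starts the complex, was at 432, 438 and 431 normalized counts without stimulation and 461, 502 and 410 after flagellin. After ADP-heptose it was at 374, 398 and 365, below all libraries of the other groups. The log2 fold changes of -0.19 against non-stimulated cells (-0.41 to 0.03, adjusted p = 0.256) and -0.27 against flagellin (-0.49 to -0.05, adjusted p = 0.136) did not pass the test. With library totals the second was -0.39 and passed (adjusted p = 0.0395), and without ADP-heptose replicate 3 it was -0.24 (0.165).

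The make-up of the IRAK transcripts followed from these values. IRAK3, a negative regulator found mainly in myeloid cells, had 0 counts in every library. By level per length, IRAK2 made up 12.7%, 12.7% and 13.2% of the sum of IRAK1, IRAK2, IRAK3 and IRAK4 in the non-stimulated libraries. After flagellin it made up 13.8%, 15.5% and 15.0%, and after ADP-heptose 33.9%, 33.7% and 26.6%. The 3 groups did not overlap. The mean share rose by 18.6 percentage points after ADP-heptose and by 1.91 after flagellin, each with an exact two-sided permutation p of 0.1, the smallest that 3 libraries against 3 can give. There were 6.40 to 6.74 IRAK1 transcripts for each of IRAK2 without stimulation, 5.30 to 6.11 after flagellin, and 1.91 and 1.92 after ADP-heptose in replicates 1 and 2 against 2.72 in replicate 3.

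**Figure D2:**
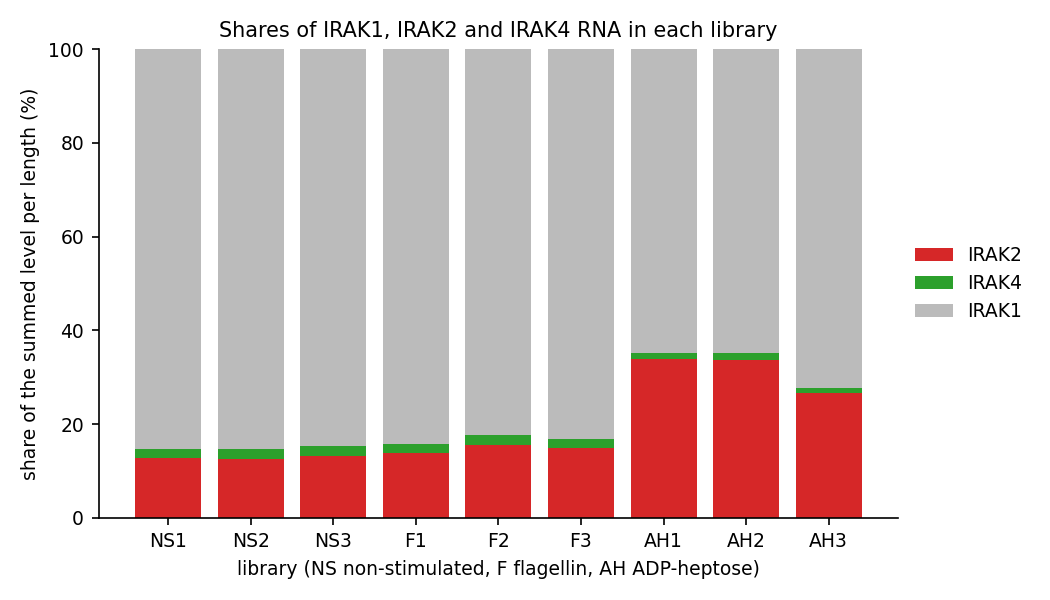
Stacked bars give, for each library, the share (%) of IRAK2, IRAK4 and IRAK1 in the summed level per length of the IRAK genes; IRAK3 had 0 counts. The IRAK2 share is 12.7% to 13.2% in the non-stimulated libraries, 13.8% to 15.5% after flagellin and 26.6% to 33.9% after ADP-heptose, where replicate 3 has the lowest value.

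MYD88 (chr3:38138478-38143022, plus strand), the adaptor shared by most Toll-like receptors and the interleukin-1 receptors, had 2108, 2044 and 2140 normalized counts without stimulation. After flagellin it had 2414, 2015 and 2113, and after ADP-heptose 2060, 2027 and 1696. The groups overlapped throughout. Its log2 fold changes were -0.12 after ADP-heptose (-0.32 to 0.08, adjusted p = 0.443) and 0.06 after flagellin (-0.15 to 0.26, adjusted p = 1). Without ADP-heptose replicate 3, its lowest library, the first was -0.03.

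TIRAP (chr11:126283065-126298845, plus strand), the bridging adaptor that brings MyD88 to TLR2 and TLR4, was at 888, 760 and 737 normalized counts without stimulation and 788, 777 and 831 after flagellin. After ADP-heptose it was at 613, 612 and 524. All 3 of these were below all 6 other libraries. Against non-stimulated cells TIRAP fell, with a log2 fold change of -0.45 (0.10 standard error, interval -0.66 to -0.23, edgeR adjusted p = 0.0115). The fall against flagellin was of the same size, -0.45 (-0.67 to -0.23, adjusted p = 0.0137). Without ADP-heptose replicate 3, its lowest library, both stayed called at -0.37 (adjusted p = 0.0027 and 0.00358).

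The TIRAP calls were close to the threshold. Against non-stimulated cells the call was lost without non-stimulated replicate 1, the highest library (-0.36, adjusted p = 0.0685). Against flagellin it was lost without flagellin replicate 1, 2 or 3, with adjusted p-values of 0.0551, 0.0532 and 0.0785 and values from -0.42 to -0.47. TIRAP shares 359 of its 3591 exon bases with the antisense gene AP001318.2, and the strand setting of the counting is not given in the sources used here. A second antisense gene there, AP001318.1, had 0 counts. AP001318.2 had 76 to 126 counts and a log2 fold change of -0.13 after ADP-heptose (-0.48 to 0.23, adjusted p = 0.663).

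TICAM1 was the adaptor outside the 10 genes that rose. It was at 607 to 656 normalized counts without stimulation, 748 to 844 after flagellin and 2274 to 2476 after ADP-heptose. The log2 fold change was 1.91 after ADP-heptose (standard error 0.08, interval 1.73 to 2.09, adjusted p = 8.2e-09) and 0.32 after flagellin (0.14 to 0.50, adjusted p = 0.301). The second passed in 1 of 17 alternatives, the fit without ADP-heptose replicate 3 (adjusted p = 0.022). SARM1 and PIK3AP1 did not pass the test, and TICAM2, which links TRIF to TLR4, had at most 5 counts.

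TOLLIP (chr11:1274371-1309654, minus strand), a protein that binds IRAK1 and damps signalling, had 3690, 3625 and 3533 normalized counts without stimulation, 4040, 3674 and 3723 after flagellin and 3732, 3686 and 4094 after ADP-heptose. The groups overlapped in all 3 comparisons. Its log2 fold changes of 0.09 (-0.07 to 0.24) after ADP-heptose and 0.08 (-0.08 to 0.23) after flagellin had adjusted p-values of 0.474 and 1, and the intervals reach from 0.95-fold to 1.18-fold in the first case and from 0.95-fold to 1.17-fold in the second.

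SIGIRR (chr11:405716-417455, minus strand), a receptor-like inhibitor of interleukin-1 and Toll-like receptor signalling, had 5119, 5181 and 5174 normalized counts without stimulation and 5766, 5302 and 5335 after flagellin. After ADP-heptose it had 5311, 5258 and 8410. The groups did not overlap with the non-stimulated one, but the spread after ADP-heptose, 28.5% of the mean, came from replicate 3. The log2 fold change of 0.29 (-0.03 to 0.61, adjusted p = 0.238) became 0.04 (0.674) without this library. After adjustment for transcript length and GC content it became -0.0021 (0.984), and with no filter on low counts it was 0.28 and passed the test (0.0198).

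**Figure D3:**
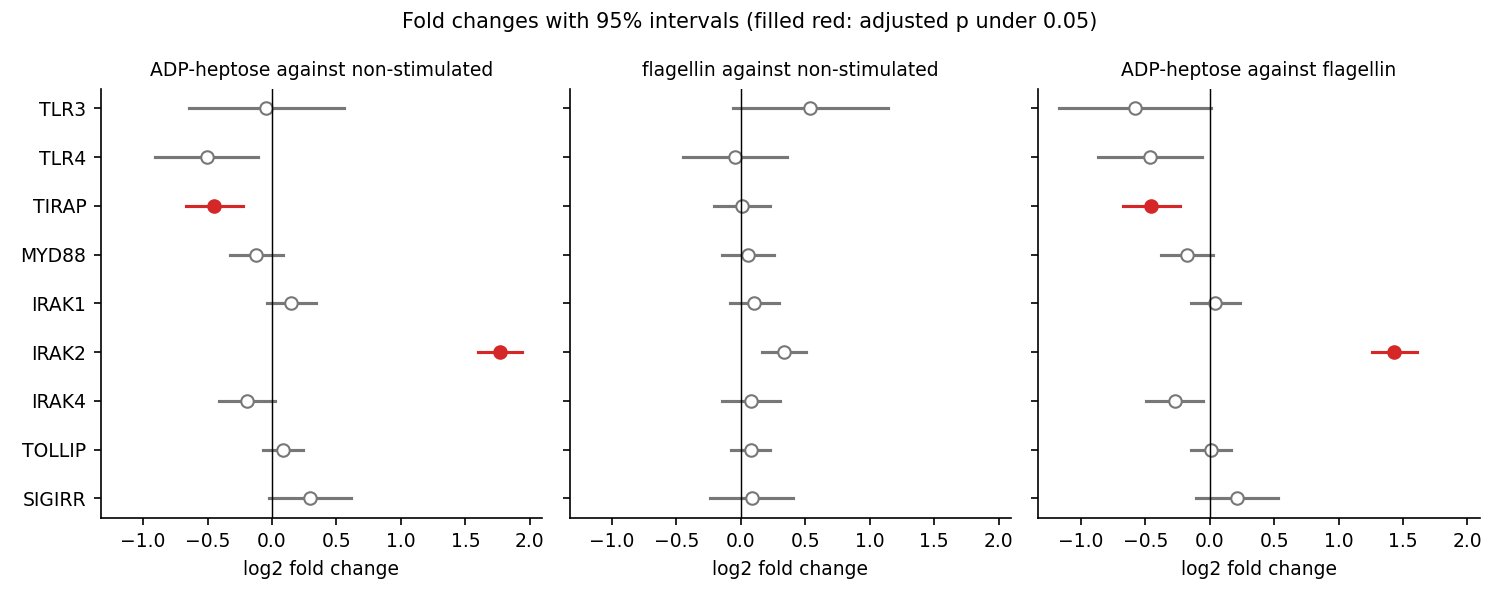
Log2 fold changes (horizontal axis) with 95% intervals for the 9 tested genes in the 3 comparisons; filled red points have an adjusted p under 0.05. IRAK2 stands at 1.77 and 1.43 in the comparisons with ADP-heptose and at 0.33 after flagellin, and TIRAP at -0.45 in both comparisons with ADP-heptose.

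None of the partners of the IRAK kinases passed the test. Of the 12 genes listed, 11 were tested, among them the ubiquitin ligases TRAF6 and PELI1, the kinase MAP3K7 (TAK1) and its partners TAB1, TAB2 and TAB3. In each comparison 0 were called by edgeR, 0 by DESeq2 and 0 had an unadjusted p under 0.05. Over all genes, edgeR called 11.9% after ADP-heptose, 0.379% after flagellin and 8.16% between the stimuli. The shares with an unadjusted p under 0.05 in edgeR were 24.9%, 3.79% and 21.2%. The median log2 fold change of the 11 partners was -0.10 after ADP-heptose and -0.04 after flagellin. TRAF6, the first protein downstream of the IRAK complex, had -0.10 after ADP-heptose (-0.33 to 0.12, adjusted p = 0.57) and -0.10 after flagellin (-0.33 to 0.13, adjusted p = 1).

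The signalling receptors of interleukin-1 and interleukin-18 use the same MyD88 and IRAK proteins. In a list of 8 genes of such receptors and their inhibitors, IL18RAP had 0 counts and IL1R1, IL1RL1, IL1RL2 and IL18R1 at most 10. Of the 3 that were tested, the decoy receptor IL1R2 and the receptor antagonist IL1RN, both inhibitors rather than signalling receptors, rose after ADP-heptose. Over all genes tested, edgeR called 11.9% in this comparison and 8.16% between ADP-heptose and flagellin. The receptor chain IL1RAP was not called (log2 fold change 0.09, interval -0.29 to 0.48, edgeR adjusted p = 0.774). IL1R2 was at 383 to 465 normalized counts without stimulation and 527 to 773 after ADP-heptose (log2 fold change 0.55, interval 0.24 to 0.86, adjusted p = 0.0241), and stayed called in 14 of 17 alternatives. IL1RN was at 600 to 688 and 744 to 955 (0.39, 0.14 to 0.63, adjusted p = 0.0427), and stayed called in 7 of 17. IL1R2 lost its call without non-stimulated replicate 1 (0.47, adjusted p = 0.116) or 2 (0.57, 0.0684). IL1RN lost it without ADP-heptose replicate 1 or any 1 of the 6 flagellin and non-stimulated libraries (0.35 to 0.46, adjusted p = 0.0526 to 0.156). IL1R2 was also higher after ADP-heptose than after flagellin (0.52, adjusted p = 0.0409), a call kept in 9 of 17 alternatives and lost without any 1 of the same 6 libraries (0.47 to 0.55, adjusted p = 0.0534 to 0.157). Without ADP-heptose replicate 3 the rises over non-stimulated cells were 0.38 (adjusted p = 0.00958) and 0.28 (0.0328).

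Of 7 other brakes on the pathway, the deubiquitinases TNFAIP3 (A20) and CYLD rose after ADP-heptose and TNFAIP3 was called after flagellin, CYLD not. Over all genes tested, edgeR called 11.9% after ADP-heptose, 0.379% after flagellin and 8.16% between the stimuli. TNFAIP3 was at 238 to 279 normalized counts without stimulation, 609 to 665 after flagellin (log2 fold change 1.27, adjusted p = 2.9e-04) and 5741 to 7795 after ADP-heptose (4.76, adjusted p = 1.8e-10). CYLD was at 418 to 458, 467 to 495 and 1028 to 1308, with a log2 fold change of 1.47 after ADP-heptose (interval 1.25 to 1.70, adjusted p = 1.1e-06) and 0.16 after flagellin (-0.07 to 0.39, adjusted p = 1). Both were also higher after ADP-heptose than after flagellin, by 3.49 (adjusted p = 2.7e-09) and 1.32 (4.6e-06). RNF216, USP4, NLRX1, TRIM38 and SOCS1 did not pass the test in any comparison. SOCS1 had 0 to 6 counts in the non-stimulated and flagellin libraries and 15 to 28 after ADP-heptose (adjusted p = 0.0761).

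The 5 NF-κB targets used as a check that the cells responded all rose with both stimuli, with a median log2 fold change of 5.97 after ADP-heptose and 2.49 after flagellin. They were also higher after ADP-heptose than after flagellin in all 5 cases, with a median of 3.27. CCL20, a chemokine, had 8.01 (adjusted p = 1.9e-13) and 4.74 (4.1e-11), and CXCL8 had 7.68 (9.5e-12) and 2.49 (1.2e-06). ICAM1, an adhesion molecule, had 5.97 (6.2e-12) and 2.62 (6.6e-08), and BIRC3 had 4.93 (1.6e-10) and 2.08 (1.9e-06). NFKBIA, the inhibitor of NF-κB, had 3.94 (3.7e-12) and 0.68 (2.4e-04). The flagellin libraries thus held a response while TLR5 had 0 to 14 counts. No member was called after flagellin in the fit of all 9 libraries, where 0.379% of all genes tested were.

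The 5 genes with the pattern most like that of IRAK2 were sought among 12,123 tested genes of a mean log2 CPM no lower than 1, by the root mean square difference over the 9 libraries of log2 normalized counts set to 0 at each gene's non-stimulated mean. They were FAM222A (0.10), TNFRSF10B (0.11), RHOB (0.12), TICAM1 (0.12) and RAET1L (0.12), where the median over all genes was 1.04. TNFRSF10B is a death receptor for TRAIL, RHOB a small GTPase and RAET1L a ligand of the receptor NKG2D. The log2 fold changes of the 5 were 1.65 to 1.91 after ADP-heptose, beside 1.77 for IRAK2, and 0.15 to 0.37 after flagellin, beside 0.33. This closeness follows from the selection, which used the same 9 libraries, and is no separate result. Without ADP-heptose replicate 3, TICAM1 was the nearest of all at 0.07, and the other 4 ranked between 3 and 13.

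**Figure D4:**
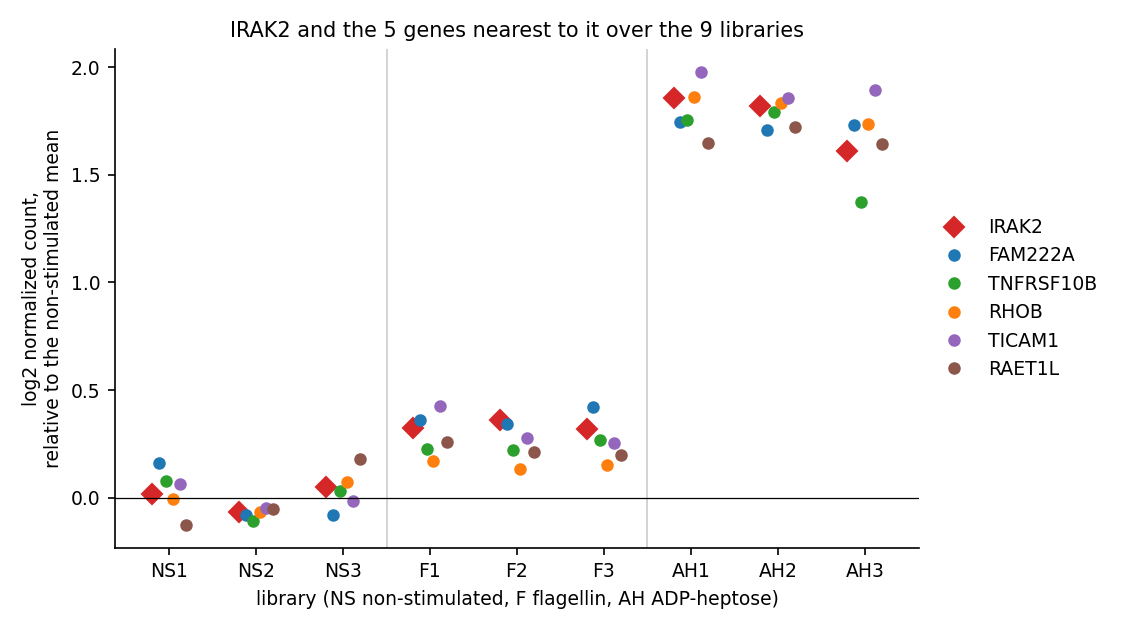
Log2 normalized counts of IRAK2 (diamonds) and its 5 nearest genes (circles) in the 9 libraries, each relative to the gene's own non-stimulated mean. In the flagellin libraries the 6 genes lie between 0.13 and 0.43, and in the ADP-heptose libraries between 1.38 and 1.98, with IRAK2 at 1.86, 1.82 and 1.61.

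Other measures moved with the ADP-heptose group. The summed leukocyte markers went from 2.24 to 14.4 normalized counts without stimulation and 11.4 to 28.1 after flagellin to 32.9 to 63.3 after ADP-heptose. ITGAM, the one tested of those 8 genes, had 0 to 6, 2 to 8 and 23 to 59 counts. edgeR called it after ADP-heptose against non-stimulated cells (log2 fold change 3.87, adjusted p = 0.0121) and against flagellin (2.80, adjusted p = 0.0482). The epithelial sum was 327,900 to 342,800 without stimulation and 335,800 to 349,300 after flagellin, against 359,700 to 507,600 after ADP-heptose. In that group KRT8, KRT18 and KRT19 were highest in replicate 3, with SDs of 22.5%, 31.1% and 25.9% of the mean. Against non-stimulated cells 6 of the 9 epithelial markers tested lay above 0. Of these 9, KRT20 alone was called (log2 fold change 0.40, edgeR adjusted p = 9.4e-04), and CDX2 was at -0.95 (adjusted p = 0.19). The fibroblast sum was 504 to 591 without stimulation, 500 to 643 after flagellin and 680 to 766 after ADP-heptose. COL1A1, the tested fibroblast marker, was called after ADP-heptose against non-stimulated cells (0.41, edgeR adjusted p = 0.0311). In that comparison 11.9% of all genes were called. The endothelial sum was 0 to 7.66 in all groups. The ADP-heptose libraries were also the deepest. Their part in the values of IRAK2 and TIRAP was not tested.

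**Figure D5:**
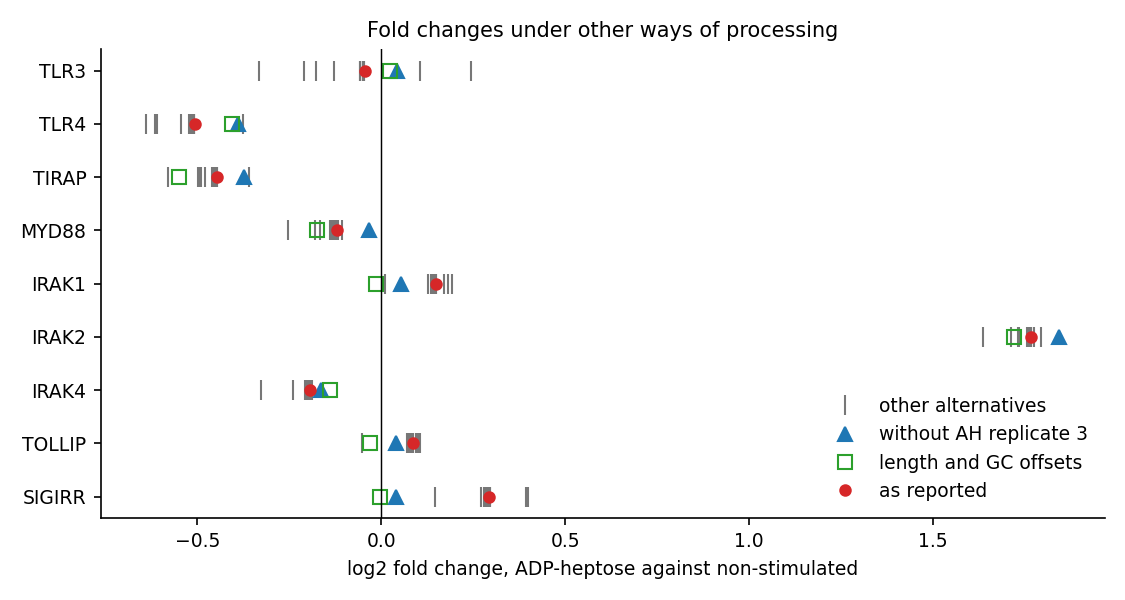
Log2 fold changes of the 9 tested genes for ADP-heptose against non-stimulated cells under 17 other ways of processing (grey ticks, triangles and squares) beside the reported values (red). The IRAK2 values stay within 1.64 to 1.84 and those of TIRAP within -0.58 to -0.36, while SIGIRR ranges from -0.0021 to 0.40.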

How the data were processed

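Poly(A)-enriched RNA of HT-29 cells was sequenced in 9 libraries, 3 per condition. The authors aligned the paired-end reads with HISAT2, assigned them to genes with featureCounts and deposited raw counts. The versions, genome build, annotation and strand setting are not given in the sources used here. The table has 62,972 lines. Identifiers listed more than once (232) held identical counts and were kept once, and 92.9% matched GENCODE release 29, which gave positions and exon lengths on GRCh38.

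The model was edgeR 4.0.16 under R 4.3.3 (TMM, filterByExpr by group, robust quasi-likelihood F test, 1 fit of all 9 libraries), with Benjamini-Hochberg adjustment over 17,412 genes. A gene was called at an adjusted p under 0.05. Fits were tested on simulated data. Normalized counts scale every library to 1 common effective size, the geometric mean of all 9. RPKM divides by merged exon length and effective library size. DESeq2 1.42.0, other scalings and filters, the 6 libraries of a comparison, a replicate block and each library left out were alternatives, and offsets for transcript length and GC content were added after seeing the data. Figures were drawn with matplotlib 3.10.9.

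The genes, lists and motifs were chosen with earlier results of these data known. Named are the 10 genes, list genes called in any comparison or at 0 counts, the 5 genes nearest to a member called at 2-fold or more, genes overlapping a member, and, outside this rule and chosen after their values were seen, list genes given with low counts or as examples not called.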

Additional observations from a re-analysis of the deposited data

How the results depend on the processing

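Both IRAK2 calls with ADP-heptose were kept in all 17 alternatives. The number of members called fell from 2 to 1 with the 2-fold threshold in both comparisons with ADP-heptose. With library totals it rose to 3 in both, adding TLR4 against non-stimulated cells and IRAK4 against flagellin. With no filter on low counts it was 3 against non-stimulated cells, adding SIGIRR. It ranged from 1 to 2 in both comparisons with ADP-heptose when 1 library was left out. After flagellin it ranged from 0 to 1 in this way, and was also 1 with the 6 libraries of the comparison. The rise of the IRAK2 share, in percentage points, ranged from 17.3 to 21.0 (ADP-heptose), 1.54 to 2.40 (flagellin) and 15.4 to 19.1 (ADP-heptose over flagellin) without 1 library, and was 17.1, 1.72 and 15.4 for counts not divided by length.

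None of the log2 fold changes that changed sign was called in the reported fit, and SIGIRR after ADP-heptose was called in 1 alternative, with no filter (0.282, adjusted p = 0.0198). Adjusted for length and GC content, ADP-heptose against non-stimulated cells gave 0.0244 for TLR3, -0.0146 for IRAK1, -0.0311 for TOLLIP and -0.0021 for SIGIRR. ADP-heptose against flagellin gave -0.0491 for IRAK1, -0.0558 for TOLLIP and -0.0002 for SIGIRR, and flagellin against non-stimulated cells -0.0248 for TIRAP and -0.0019 for SIGIRR. Library totals gave -0.0522 for TOLLIP after ADP-heptose, -0.0792 for IRAK1 and -0.112 for TOLLIP against flagellin, and -0.0108 for TIRAP after flagellin. TIRAP after flagellin was also -0.0044 with no filter, -0.0005 with a mean of at least 10 counts and -0.0004 with 6 libraries. With 1 library left out, the values after flagellin ranged from -0.0458 to 0.0926 for TIRAP, -0.198 to 0.0871 for TLR4, -0.0296 to 0.102 for MYD88, -0.0014 to 0.145 for IRAK4 and -0.0467 to 0.0925 for IL1R2. They ranged from -0.332 to 0.245 for TLR3 after ADP-heptose, and against flagellin from -0.0439 to 0.0979 for IRAK1, -0.0292 to 0.0533 for TOLLIP and -0.0386 to 0.323 for SIGIRR. The cause was not tested.

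Between same-numbered libraries the correlations of deviations were -0.447 to 0.294, over 0.1 in 2 of 9 pairs. Not every library correlated best with its own number. The deviations are centred within each group and follow transcript length in some libraries (r = -0.60 in ADP-heptose replicate 3 and -0.42 in non-stimulated replicate 2). They therefore cannot show whether same-numbered libraries share an experiment. With the replicate number as a block, 2, 0 and 2 members were called, and over all genes 1064 higher and 523 lower after ADP-heptose (without it 1302 and 770), 45 and 1 after flagellin (64 and 2), and 784 and 327 between the stimuli (940 and 481).

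Over all genes, library totals gave 917 higher and 1886 lower after ADP-heptose and 708 and 1064 against flagellin. After flagellin, the 6 libraries of the comparison gave 140 and 3, no filter 114 and 10, and DESeq2 97 and 3. At these depths the few counts of TLR5, TLR3 and TLR4 limit what can be seen of them, and how much of their spread is counting error was not tested.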
